A study of Mus musculus with 1 sample.

Results

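Transcripts of 9 genes of bone morphogenetic protein (BMP) signalling were followed through the cell types of the fetal mouse testis. The genes were the ligands *Bmp2*, *Bmp4* and *Bmp7*, the target genes *Id1*, *Id2*, *Id3* and *Id4*, and the inhibitory SMAD genes *Smad6* and *Smad7*. They were taken by symbol from the 22631 features of 1 control single-cell library, and all 9 were present. The library held testis cells of 12 controls in 1 pool, labelled WT and embryonic day 14.5. The design text gives embryonic days 13.5 and 14.5, and the methods describe the controls as Nr5a1 L2/L2 fetuses (loxP-flanked alleles) without the Sertoli cell Cre transgene. They carried no YFP reporter. Mice were on a mixed C57BL/6 and 129/SvPass background. Because the controls were pooled, no value belongs to 1 fetus. Mutant cells were not analysed here.

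BMP ligands are secreted dimers that bind paired type I and type II receptors. The receptors phosphorylate SMAD1, SMAD5 and SMAD9, which join SMAD4 in the nucleus and raise transcription of ID genes and of *Smad6* and *Smad7*. ID proteins lack a DNA-binding region and sequester the E proteins that basic helix-loop-helix factors need as partners, whereas SMAD6 and SMAD7 feed back on the receptors. ID transcription also answers to other signals, so an ID level is not by itself a reading of BMP activity. BMP signals are known for their part in the formation of germ cells and, in the ovary, in the somatic cells.

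Promoter sequences of 5 of the 9 genes were found in the RefSeq promoter table (GRCm38.p6), and those of *Id4* and *Smad6* are shown as 1 example each of an ID gene and an inhibitory SMAD gene, with different motifs. Both genes, like *Id2* and *Id3*, had their highest level in coelomic epithelium-like cells. Each run is the 250 bases 5′ of the RefSeq start on the strand of the gene, at chr13:48260866-48261115 (plus strand) for *Id4* and chr9:64022060-64022309 (minus strand) for *Smad6*. Capitals mark GGCGCC, the palindrome bound by SMAD1 and SMAD5, and GTCT, the SMAD4 motif, each searched on both strands without overlap between them.
Id4: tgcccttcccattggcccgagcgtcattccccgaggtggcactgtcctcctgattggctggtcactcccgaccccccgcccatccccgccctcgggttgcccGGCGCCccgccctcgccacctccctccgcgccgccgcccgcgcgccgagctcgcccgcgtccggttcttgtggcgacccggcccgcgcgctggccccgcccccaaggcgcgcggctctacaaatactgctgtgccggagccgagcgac
Smad6: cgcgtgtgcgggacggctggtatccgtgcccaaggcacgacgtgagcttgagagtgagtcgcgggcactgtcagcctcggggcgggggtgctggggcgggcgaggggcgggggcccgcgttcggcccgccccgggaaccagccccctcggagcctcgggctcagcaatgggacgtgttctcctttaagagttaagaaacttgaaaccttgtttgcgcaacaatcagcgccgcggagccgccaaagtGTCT
The *Id4* window held GGCGCC 148 bases before the start and no GTCT. The *Smad6* window held GTCT at its last bases, 4 bases before the start, and no GGCGCC. Over all 32851 promoter windows of this length, 9.59% held GGCGCC, 82.9% held GTCT and 0.277% held the longer BMP response element that joins both kinds of site. None of the 5 windows held the BMP response element. GTCT was also present in the windows of *Bmp4*, *Id2* and *Id3*, and GGCGCC in that of *Id2*.

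The filters kept 3816 cells with 54586099 UMIs (unique molecular identifiers, 1 per captured transcript) and a median of 12036 UMIs per cell. They formed 15 clusters, found without using the 9 genes or other BMP pathway genes, and 9 classes of at least 30 cells were named from marker lists. Sertoli-like cells (863) carried all 9 of their markers, and *Amh*, *Ptgds* and *Cst9* led them. Interstitial-like cells were the most numerous (1451, in 4 clusters), followed by peritubular myoid-like cells (517), Leydig-like cells (311, in 2 clusters), germ-like cells (252), coelomic epithelium-like cells (161), perivascular-like cells (104), endothelial-like cells (42) and immune-like cells (35). Of the rest, 16 cells were erythroid-like, and a shallow cluster of 64 cells (cluster 11, median 3104 UMIs) stayed unnamed. Cluster 11 had 7 of the 9 Sertoli markers (mean log2 ratio 1.29), but none of them was among its 10 leading genes. The 2 Leydig-like clusters differed in their summed marker levels (in CPM, UMIs per 1000000 UMIs of the cluster). Cluster 8 (127 cells) had *Cyp11a1*, *Cyp17a1* and *Star*, genes of steroid synthesis, among its 10 leading genes and had a summed level of 38894 over the Leydig list. Cluster 6 (184 cells) also had all 7 Leydig markers but was led by *Nppc*, *Vsnl1* and *Nts*, with 10102 over the Leydig list and 714.5 over the interstitial list. Peritubular myoid-like cells were named from 3 of 5 markers, and coelomic epithelium-like cells from 4 of 5. Coelomic epithelium-like cells also had 1796 over the interstitial list and 756.9 over the peritubular myoid list. Perivascular-like cells had 2505 over the peritubular myoid list, against 3105 in peritubular myoid-like cells. The latter also had 2448 over the interstitial list. At a clustering resolution of 1.2 in place of 0.8, 346 cells were peritubular myoid-like, 169 perivascular-like and 1385 interstitial-like. Unnamed cells then numbered 236, against 64 at 0.8.

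Levels are given as CPM, the UMIs of a gene summed over the cells of a class, per 1000000 UMIs of those cells. Each has a 95% Poisson interval, computed exactly, that covers counting error only. With 1 library there was no replicate, so no test was made. The counts come from transcript 3′ ends and are not divided by length, so levels are compared between classes and not between genes.

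*Bmp2*, on chromosome 2 (133552159 to 133562885, plus strand), was counted mostly in Leydig-like cells. Leydig-like cells had 40.4 CPM (229 UMIs, interval 35.3 to 46.0), which was 63.3% of all *Bmp2* UMIs of the kept cells. Endothelial-like cells followed at 12.6 CPM (5.75 to 23.9, from 9 UMIs), an interval below that of Leydig-like cells. Coelomic epithelium-like (7.61 CPM), immune-like (5.48), interstitial-like (4.201), peritubular myoid-like (4.11) and perivascular-like cells (3.86) had overlapping intervals. Germ-like cells had 4 UMIs of *Bmp2* (0.458 CPM), and the 863 Sertoli-like cells had 1 UMI (0.0774 CPM, up to 0.431). The share of cells with a UMI gave the same picture. After thinning each cell to 5000 UMIs, *Bmp2* was seen in 19.8% of Leydig-like cells (43.7% as read) and in 0 of 847 Sertoli-like cells, with an upper limit of 0.435%, at median depths of 15923 and 14303 UMIs as read.

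*Bmp4*, on chromosome 14 (46383520 to 46390669, minus strand), was spread over several classes. Perivascular-like cells had 30.9 CPM (40 UMIs, 22.1 to 42.1), Leydig-like cells 25.04 (21.1 to 29.5), peritubular myoid-like cells 21.9 (18.5 to 25.7) and coelomic epithelium-like cells 20.8 (16.0 to 26.7). These 4 intervals overlapped, so the order among them is not resolved. Germ-like cells had 16.3 CPM (13.7 to 19.2), endothelial-like cells 9.77 and interstitial-like cells 9.45 (7.93 to 11.2). Sertoli-like cells had 3 UMIs (0.232 CPM), and immune-like cells had none, which allows up to 6.73 CPM. Perivascular-like cells were the highest class by a margin that other settings did not keep: Leydig-like cells came first when outlier cells were kept (27.6 CPM), at a clustering resolution of 1.2 (25) or with each cell classed by itself (27.2). When doublets were kept, a rete testis-like cluster came first with 67.1 CPM.

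*Bmp7*, on chromosome 2 (172868012 to 172940321, minus strand), had similar levels in 3 classes. Leydig-like cells had 16.9 CPM (96 UMIs, 13.7 to 20.7), germ-like cells 14.7 (12.2 to 17.4) and interstitial-like cells 12.4 (10.6 to 14.4). Coelomic epithelium-like cells had 6.29 CPM (3.78 to 9.82), and the other 5 classes 1.39 to 2.94. Among named classes, germ-like cells came first when outlier cells (15.0 CPM) or doublets (14.1 CPM) were kept. With doublets kept, 85 cells of Leydig-like cluster 6 stayed unnamed and were not ranked. They had *Bmp7* at 39.4 CPM (28.6 to 52.9), and the remaining Leydig-like cells had 10.4 CPM.

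The Leydig-like class was not uniform in its ligands. *Bmp2* was at 68.3 CPM (58.5 to 79.3) in cluster 6 and 18.1 (13.7 to 23.4) in cluster 8. *Bmp7* showed the same order, with 34.95 CPM (28.0 to 43.1) in cluster 6 and 2.54 (1.095 to 4.999) in cluster 8. *Bmp4* ran the other way, with 11.9 CPM (8.04 to 17.0) in cluster 6 and 35.5 (29.2 to 42.7) in cluster 8. For each of the 3 ligands the intervals of the 2 clusters were apart. Cluster 8, with the higher level of steroidogenic genes, thus had the higher level of *Bmp4*, and cluster 6 those of *Bmp2* and *Bmp7*. Hemoglobin and other erythroid markers summed to 3215 CPM in cluster 8 and 340.0 in cluster 6, and their part in these levels was not tested.

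Of the 9 named classes, Sertoli-like cells had the lowest summed ligand level, though its order against immune-like cells is not resolved. Summed over *Bmp2*, *Bmp4* and *Bmp7* they had 22 UMIs (1.70 CPM, 1.07 to 2.58), 18 of them *Bmp7*. The same sum was 82.3 CPM (75.0 to 90.2) in Leydig-like cells and 23.7 to 36.3 CPM in germ-like, interstitial-like, peritubular myoid-like, perivascular-like, coelomic epithelium-like and endothelial-like cells. Immune-like cells had 7.30 CPM from 4 UMIs (1.99 to 18.7), an interval that overlapped that of Sertoli-like cells.

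**Figure D1:**
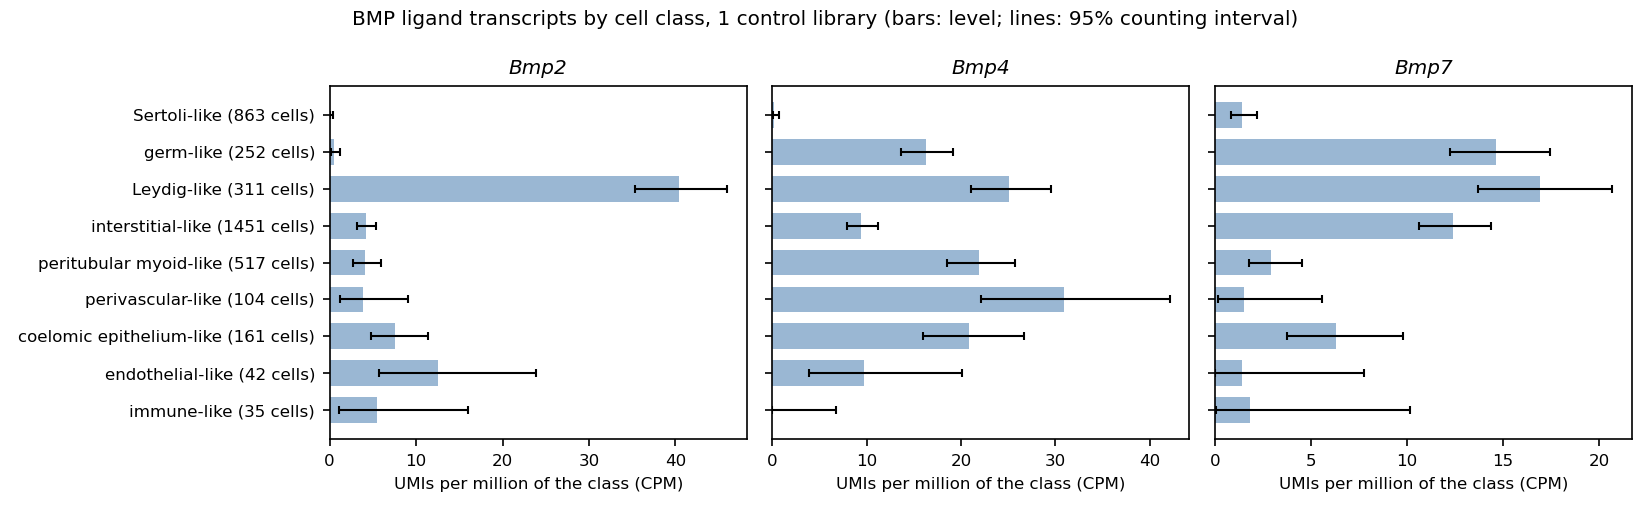
Level in each class (CPM, horizontal axis, from 0) for *Bmp2*, *Bmp4* and *Bmp7* in the 9 cell classes, with the number of cells of each class on the vertical axis. Bars give the level and lines the 95% Poisson counting interval in the 1 control library. The *Bmp2* bar of Leydig-like cells (40.4 CPM) stands apart from all others, while those of *Bmp4* and *Bmp7* have neighbours whose lines overlap.

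The ID genes had another distribution. *Id1*, on chromosome 2 (152736251 to 152737410, plus strand), was highest in endothelial-like cells, at 535 CPM (383 UMIs, 482.5 to 591). Coelomic epithelium-like cells followed at 416.5 CPM (394 to 440), and the 2 intervals did not overlap. Interstitial-like (167 CPM), perivascular-like (161), peritubular myoid-like (155) and Sertoli-like cells (151) formed a middle group whose neighbouring intervals overlapped. Within it, the intervals of interstitial-like (160 to 174) and Sertoli-like cells (144 to 158) were apart. Immune-like cells had 34.7 CPM, Leydig-like cells 28.9 (24.7 to 33.7) and germ-like cells 10.65 (8.59 to 13.0).

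*Id2*, on chromosome 12 (25093799 to 25097140, minus strand), was highest in coelomic epithelium-like cells, at 448 CPM (425 to 473). Peritubular myoid-like cells had 320.0 CPM (307 to 334) and immune-like cells 223 (185 to 266), each interval apart from the next. ID2 is known for its part in the development of lymphoid and myeloid cells. *Id2* was at least 2-fold higher in immune-like cells than in all other cells, as were 9.63% of all genes tested, and none of the other 8 genes was. Endothelial-like cells had 96.3 CPM, interstitial-like cells 65.8, Sertoli-like cells 57.4, perivascular-like cells 47.9, Leydig-like cells 24.3 and germ-like cells 3.21.

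*Id3*, on chromosome 4 (136143497 to 136145755, plus strand), was highest in coelomic epithelium-like (994 CPM, 959 to 1030) and endothelial-like cells (930 CPM, 861 to 1003), which did not differ beyond their intervals. Sertoli-like cells came next, with 582 CPM (569 to 595), followed by peritubular myoid-like (503.6) and perivascular-like cells (468). Interstitial-like cells had 173 CPM (167 to 180). Far below these were germ-like (28.3 CPM), Leydig-like (26.6) and immune-like cells (5.48, from 3 UMIs). Thinned to 5000 UMIs, *Id3* was seen in 92.9% of endothelial-like and 87.3% of Sertoli-like cells, and in 0 of 33 immune-like cells (upper limit 10.6%).

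*Id4*, on chromosome 13 (48261228 to 48266026, plus strand), whose promoter is shown above, reached 103 CPM (92.1 to 115) in coelomic epithelium-like cells. Peritubular myoid-like (35.4 CPM), germ-like (30.8) and perivascular-like cells (23.95) followed with overlapping intervals, and interstitial-like cells had 8.61. Sertoli-like, Leydig-like, immune-like and endothelial-like cells had 1.40 to 1.83 CPM. Germ-like cells held 26.6% of the *Id4* UMIs, against 1.225% of those of *Id1*, 0.495% of *Id2* and 1.345% of *Id3*. They were the deepest class per cell (median 35959 UMIs) and held 8734536 of the 54586099 UMIs of the kept cells. Their *Id4* level was 1.85-fold that of all other cells on CPM + 1, under the 2-fold rule. ID4 is known as a marker of spermatogonial stem cells after birth.

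**Figure D2:**
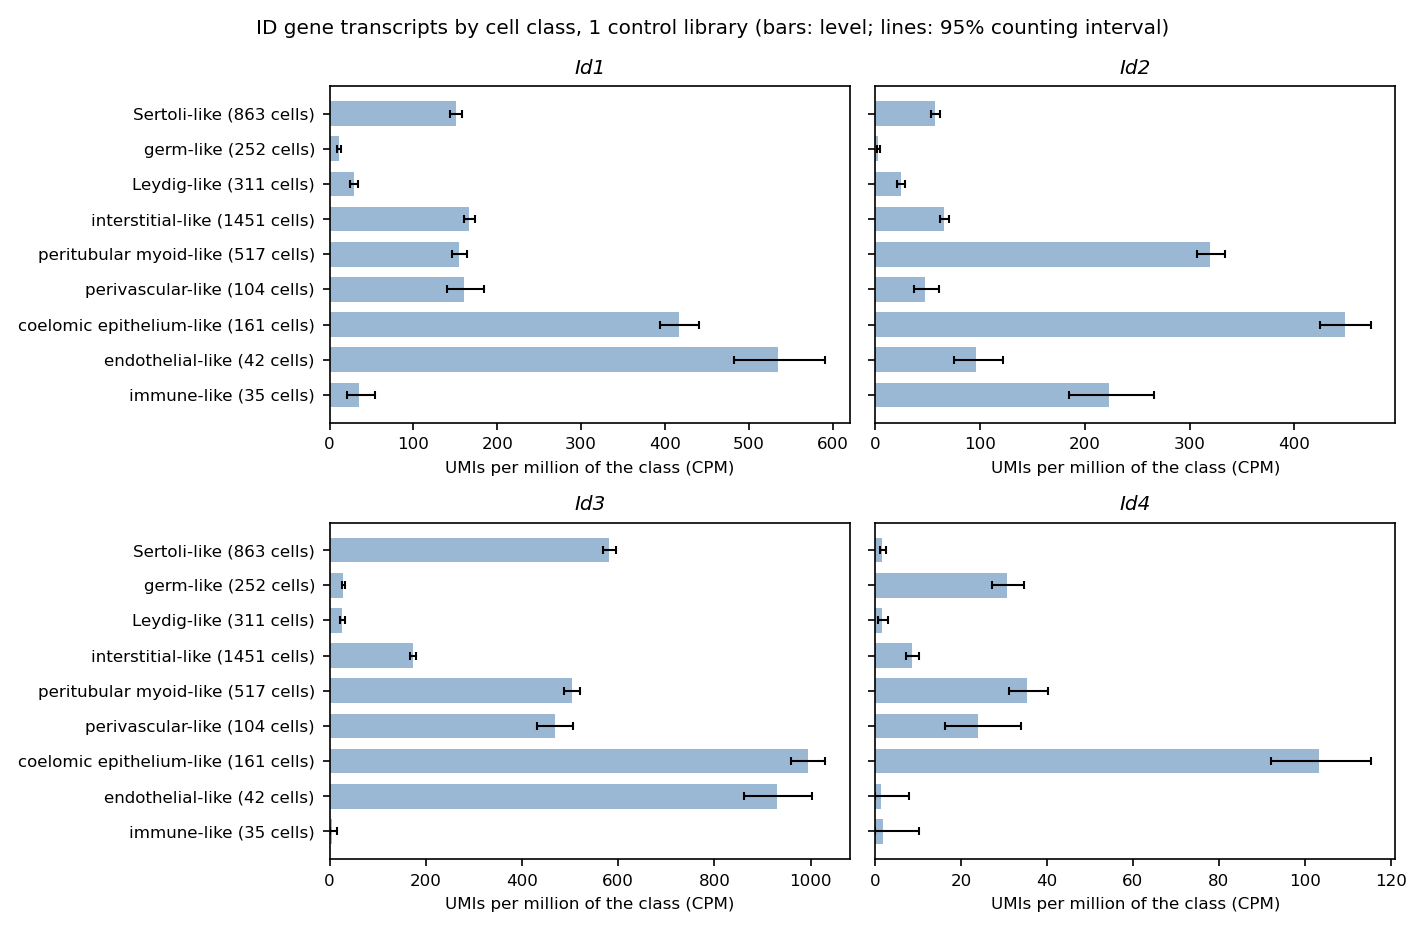
Level in each class (CPM, horizontal axes, from 0) for the 4 ID genes in the 9 cell classes, with the number of cells of each class on the vertical axis. Bars give the level and lines the 95% Poisson counting interval in the 1 control library. Coelomic epithelium-like cells have the longest or next to longest bar in each panel, and Leydig-like cells are at 28.9 CPM or less in each panel.

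Taken as a sum, the 4 ID genes reached 1962 CPM (1912 to 2013) in coelomic epithelium-like cells, 1562 in endothelial-like, 1014 in peritubular myoid-like and 792 in Sertoli-like cells. The sum was 701 CPM in perivascular-like, 415 in interstitial-like, 265 in immune-like, 81.5 in Leydig-like and 72.9 in germ-like cells. Enzymatic dissociation can induce immediate early genes, so 10 immediate early and stress genes were summed beside the IDs. Their sum was 335 CPM in coelomic epithelium-like, 499.9 in endothelial-like, 198 in peritubular myoid-like, 529.5 in Sertoli-like, 542 in Leydig-like, 940.0 in immune-like and 50.8 in germ-like cells. Its make-up differed between classes: *Jun* was at 218 CPM in Sertoli-like and 79.9 in Leydig-like cells, and the heat shock gene *Hspa1a* at 36.0 and 162 CPM. The part of dissociation in the ID levels was not tested.

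Taken as a whole class, Leydig-like cells combined high ligand with low target levels. Against all other kept cells, on the scale of log2(CPM + 1), *Bmp2* was higher by 3.48, *Bmp4* by 1.11 and *Bmp7* by 1.08. All 4 ID genes were at least 2-fold lower, *Id3* with a log2 ratio of -3.76, *Id4* of -3.05, *Id1* of -2.35 and *Id2* of -2.17. *Smad7* (-2.54) and *Smad6* (-1.43) were lower as well. Of all 12226 genes tested (at least 100 UMIs in the kept cells), 6.17% were at least 2-fold higher in Leydig-like cells and 21.5% at least 2-fold lower. The clusters did not share all of the high ligand levels. *Bmp2* was higher in cluster 6 (68.3 CPM) and cluster 8 (18.1) than in cells outside the class (2.72). *Bmp4* in cluster 6 (11.9 CPM, 8.04 to 17.0) was near its level in cells outside the class (11.04). *Bmp7* in cluster 8 (2.54 CPM) was below its level in those cells (7.48). Both clusters shared the low ID levels, with an ID sum of 111 CPM (98.6 to 125) in cluster 6 and 57.7 (49.6 to 66.7) in cluster 8. *Id1* was at 50.04 CPM (41.7 to 59.6) in cluster 6 and 12.05 (8.53 to 16.5) in cluster 8, and *Id3* at 38.9 (31.6 to 47.4) and 16.8 (12.6 to 22.0).

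Sertoli-like cells combined low ligand levels with a mixed pattern of target levels. All 3 ligands were at least 2-fold lower than in other cells (log2 ratios of -3.17 for *Bmp2*, -3.81 for *Bmp4* and -2.28 for *Bmp7*), while *Id3* (1.16), *Smad6* (1.13) and *Smad7* (2.55) were at least 2-fold higher. *Id2* (-1.03) and *Id4* (-3.19) were lower, and *Id1* (0.15) differed little. Of all genes tested, 11.1% were at least 2-fold higher in Sertoli-like cells and 17.4% at least 2-fold lower.

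*Smad7* lies on chromosome 18 (75367529 to 75395935, plus strand) and encodes a broad inhibitor of TGFβ family receptors. It was highest in Sertoli-like cells, at 374 CPM (363 to 384), which held 64.7% of its UMIs, and 82.05% of these cells had a UMI after thinning. Endothelial-like cells came next with 114.5 CPM (91.1 to 142). Peritubular myoid-like (99.8 CPM), coelomic epithelium-like (90.6), perivascular-like (75.7) and interstitial-like cells (70.6) followed, with neighbouring intervals that overlapped. Those of peritubular myoid-like (92.45 to 107.6) and interstitial-like cells (66.29 to 75.08) were apart. Germ-like cells had 33.2 CPM, Leydig-like cells 24.9 and immune-like cells 20.1.

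*Smad6*, on chromosome 9 (63953076 to 64022059, minus strand), encodes an inhibitor that acts mainly on BMP receptors. Its level was 36.4 CPM (29.9 to 43.9) in coelomic epithelium-like, 29.3 (18.2 to 44.8) in endothelial-like and 26.0 (23.3 to 28.9) in Sertoli-like cells. The interval of endothelial-like cells overlapped both others, but those of coelomic epithelium-like and Sertoli-like cells were apart. Peritubular myoid-like cells had 15.4 CPM (12.6 to 18.7), perivascular-like cells 11.6, interstitial-like cells 9.03, germ-like cells 6.07, Leydig-like cells 5.29 and immune-like cells 3.65. The class with the highest level of *Smad6*, *Id3* and *Smad7* changed when doublets were kept: a rete testis-like cluster of 34 cells then appeared with 155, 1510 and 428 CPM. *Smad6* was also highest in rete testis-like cells (41.8 CPM, against 35.5 in coelomic epithelium-like cells) with each cell classed by itself, and *Id3* in endothelial-like cells (999 against 971) when outlier cells were kept.

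**Figure D3:**
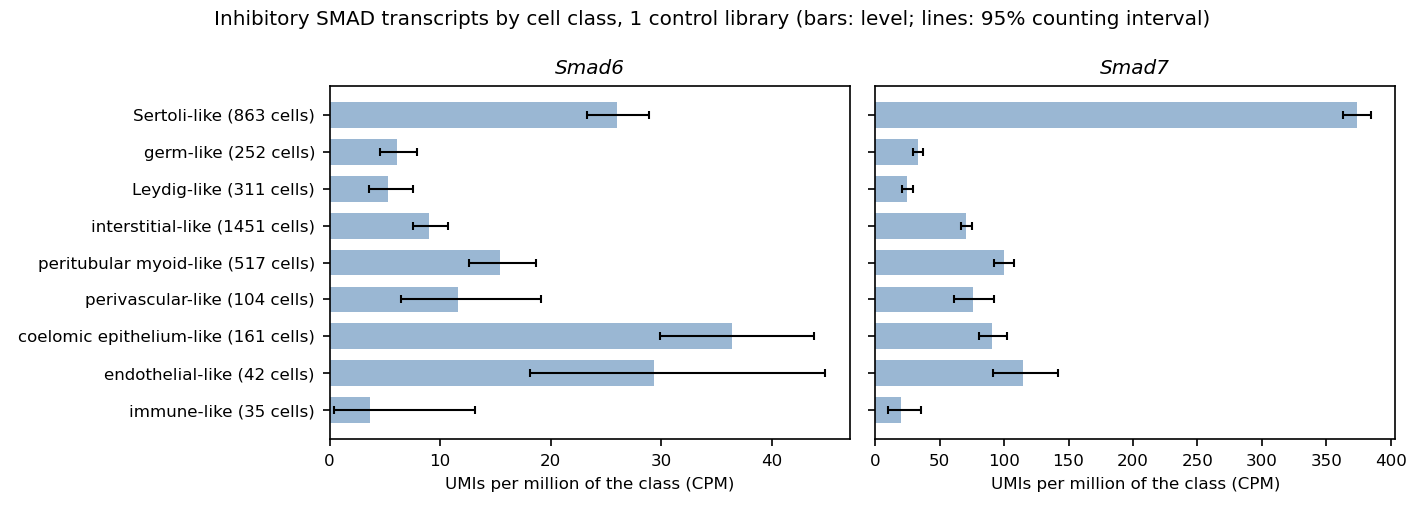
Level in each class (CPM, horizontal axes, from 0) for *Smad6* and *Smad7* in the 9 cell classes, with the number of cells of each class on the vertical axis. Bars give the level and lines the 95% Poisson counting interval in the 1 control library. Sertoli-like cells stand apart for *Smad7* (374 CPM). For *Smad6* their line overlaps that of endothelial-like cells and lies below that of coelomic epithelium-like cells.

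Within the interstitial-like class, cluster 10 (89 cells, with *Kcnk2* and *Pde10a* among its leading genes) had the highest *Id2* and *Id3*, at 244 CPM (212 to 280) and 643 CPM (590 to 700). The other 3 clusters had 39.6 to 108 CPM of *Id2* and 110 to 204.5 CPM of *Id3*. *Id4* was also highest in cluster 10, at 38.3 CPM (26.2 to 54.1), against 6.01 to 8.54. *Id1* was at 182 CPM in cluster 10 and 180 CPM in cluster 1, so these 2 did not differ beyond their intervals. *Bmp7* was highest in cluster 1 (860 cells, led by *Colec11* and *Adamts5*), at 15.5 CPM (12.9 to 18.4). *Bmp4* was highest in cluster 3 (303 cells, with *Ntng1* and *Sostdc1* among its leading genes), at 16.7 CPM (12.1 to 22.5). Both intervals overlapped those of cluster 5 (11.3 CPM for each gene, 7.61 to 16.1). They also overlapped those of cluster 10 (*Bmp7* at 5.99 CPM, 1.94 to 13.97, and *Bmp4* at 7.19, 2.64 to 15.6). The peritubular myoid list summed to 894.5 CPM in cluster 10 and to 457.5 to 617 in the other 3, and its part in the ID levels was not tested.

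**Figure D4:**
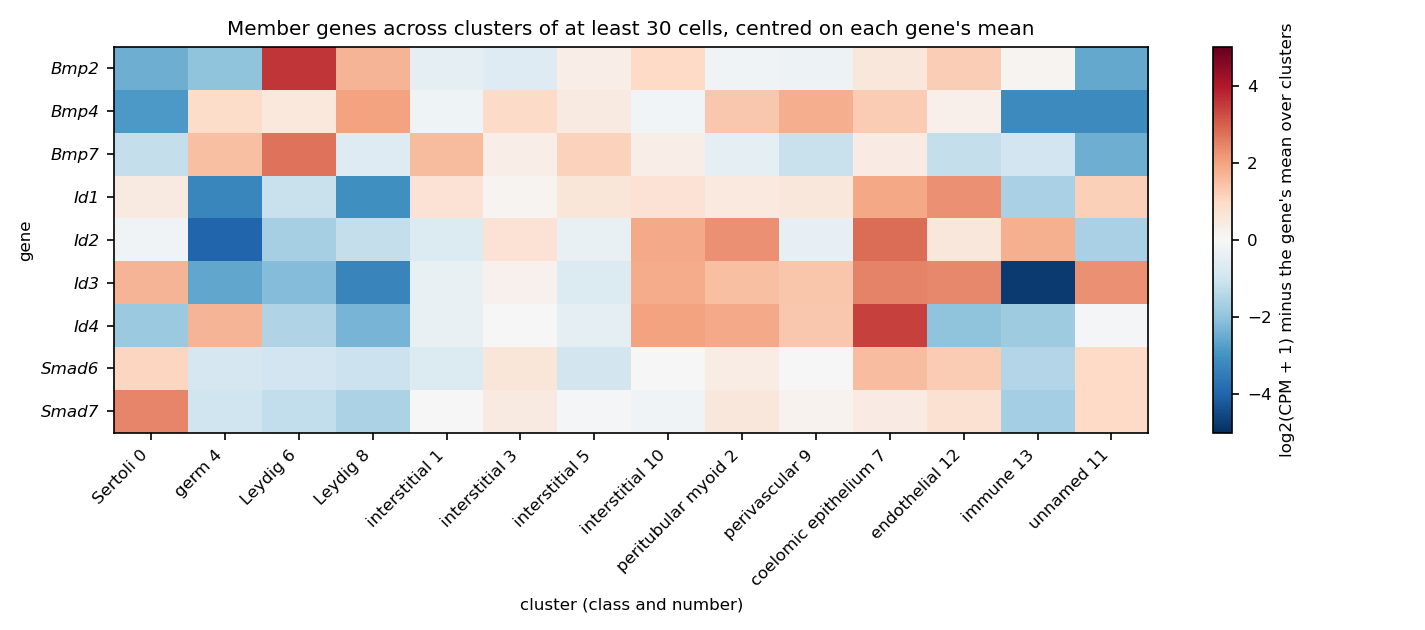
Levels of the 9 genes (rows) in the 14 clusters of at least 30 cells (columns, named by class and number, with the unnamed shallow cluster 11 at the right), as log2(CPM + 1) minus the mean of the gene over clusters (colour, blue below and red above the mean). *Bmp2* and *Bmp7* are red in Leydig cluster 6, *Bmp4* in Leydig cluster 8, all 4 ID genes in coelomic epithelium cluster 7 and *Smad7* in Sertoli cluster 0.

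Across these 14 clusters, which share 1 library, *Id1* and *Id3* had a Pearson's r of 0.87 on log2(CPM + 1), *Id3* and *Smad6* of 0.89, *Id3* and *Smad7* of 0.83, and *Smad6* and *Smad7* of 0.83. The other pairs of ID genes had lower values: 0.54 for *Id1* and *Id2*, 0.43 for *Id3* and *Id4*, 0.36 for *Id2* and *Id3*, 0.28 for *Id2* and *Id4*, and 0.25 for *Id1* and *Id4*. The ligands had r from -0.55 to 0.37 with the 6 target genes, the lowest for *Bmp2* with *Smad7*. The Sertoli markers summed to 7776 CPM in the shallow, unnamed cluster 11, against 9438 in Sertoli cluster 0. Cluster 11 had 0 UMIs of each ligand, which allows up to 15.0 CPM, beside *Id3* at 859.5 and *Smad7* at 134 CPM. Sertoli cluster 0 had 1 UMI of *Bmp2*. The part of these low counts in the r values was not tested. Outside the pathway, the genes most like *Id3* were *Wwtr1*, which encodes the transcriptional coactivator TAZ (r = 0.929), *Mxra7* (0.904) and *Zfp704* (0.902). Those most like *Smad7* were *Sh3d19* (0.935), *Ajuba* (0.929) and *Myef2* (0.917), and those most like *Smad6* were *Fbxo25* (0.908), *Ajuba* (0.895) and *Scx* (0.892). *Id1* was closest to *Marcksl1* (0.925), *Commd3* (0.919) and *Phc2* (0.917), *Id2* to *Pik3r1* (0.892), *Maml3* (0.888) and *Tgfbi* (0.885), and *Id4* to *Ccdc136* (0.894), *Crabp1* (0.891) and *Asphd2* (0.887). *Bmp2* was closest to *Itga2b* (0.868), *Atp5a1* (0.852) and *Dhrs3* (0.847), *Bmp4* to *Camk2n1* (0.899), *B4galt2* (0.873) and *Wdr54* (0.867), and *Bmp7* to *Klf15* (0.835), *Fbxo32* (0.828) and *Cers6* (0.825). With Spearman's rho in place of Pearson's r, 8 of these 27 places were kept.

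Among 47 further pathway genes, 29 reached 10 CPM in their highest class. Of 12 other ligand genes, 3 did. *Bmp6* was highest in Leydig-like cells, at 17.1 CPM (13.9 to 20.9). *Bmp5* was at 21.6 CPM (14.4 to 31.3) in perivascular-like, 14.7 (12.8 to 16.8) in interstitial-like and 11.5 (8.845 to 14.6) in Leydig-like cells. *Bmp1*, a procollagen protease and not a signalling ligand, was highest in perivascular-like cells at 88.85 CPM (73.35 to 106.6). That interval held the 75.7 CPM of peritubular myoid-like cells.

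Receptors were present across the somatic classes, and 6 of 7 reached 10 CPM. The type I receptor gene *Bmpr1a* was highest in coelomic epithelium-like cells (86.3 CPM, against 75.9 in peritubular myoid-like cells) and had 0 UMIs in endothelial-like cells. The latter had the highest level of the endothelial type I receptor gene *Acvrl1* (55.85 CPM, 39.9 to 76.05) and of its co-receptor gene *Eng* (363 CPM, 320.2 to 410). Sertoli-like cells also had *Acvrl1*, at 36.2 CPM (33.0 to 39.65), with *Eng* at 0.232 CPM. The type II receptor gene *Bmpr2* was highest in endothelial-like cells (86.6 CPM), *Acvr2b* (45.3 CPM) and *Acvr2a* (10.9 CPM) in Sertoli-like cells, and the type I receptor gene *Acvr1* in peritubular myoid-like cells (33.5 CPM). These orders were not all resolved. The interval of *Bmpr2* (66.4 to 111) held the 77.6 CPM of Leydig-like cells. Coelomic epithelium-like cells had *Acvr1* at 29.8 CPM and *Acvr2a* at 10.3 CPM, inside the intervals of the highest class (29.3 to 38.1 and 9.18 to 12.9). They had *Acvr2b* at 40.7 CPM. The co-receptor genes *Rgma* and *Rgmb* were highest in interstitial-like (28.5 CPM) and Sertoli-like cells (18.8 CPM). *Rgma* was at 23.0 CPM in peritubular myoid-like cells. *Rgmb* was at 18.4 CPM in interstitial-like cells, inside the interval of Sertoli-like cells (16.5 to 21.3). Leydig-like cells were not without receptor transcripts, with *Bmpr2* at 77.6 CPM and *Bmpr1a* at 41.6 CPM.

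Of the transducers, *Smad5* was highest in coelomic epithelium-like cells, at 80.1 CPM (70.3 to 90.8), and had 16.05 CPM (12.9 to 19.7) in Leydig-like cells. Its level was also low in germ-like (16.8 CPM), immune-like (14.6) and Sertoli-like cells (22.5). *Smad1* was highest in endothelial-like cells, at 78.2 CPM (59.1 to 101.5), with 9.87 (7.46 to 12.8) in Leydig-like cells. Germ-like cells had 6.41 CPM of *Smad1* and Sertoli-like cells 13.7. *Smad4* had 100.2 CPM in coelomic epithelium-like, 91.4 in peritubular myoid-like, 51.8 in Leydig-like, 51.6 in germ-like and 36.5 in immune-like cells. *Bambi*, a pseudoreceptor and itself a BMP target, had 134 CPM in both coelomic epithelium-like and endothelial-like cells. It was near this level in peritubular myoid-like (132 CPM) and interstitial-like cells (124). Sertoli-like cells had 73.3 CPM, Leydig-like cells 24.2, immune-like cells 18.25 and germ-like cells 8.82.

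Of 12 antagonist genes, 7 reached 10 CPM. *Sostdc1* was highest in interstitial-like cells, at 266 CPM (257 to 274), with 180.5 in peritubular myoid-like cells. *Fst*, which encodes an activin and BMP binder, was highest in coelomic epithelium-like cells, at 21.2 CPM (16.3 to 27.0). *Twsg1* (70.1 CPM) and *Bmper* (11.25 CPM) were also highest in coelomic epithelium-like cells, *Nbl1* in perivascular-like cells (44.8 CPM) and *Sost* in endothelial-like cells (12.6 CPM, from 9 UMIs). The interval of *Nbl1* (34.0 to 57.9) held the 42.1 CPM of interstitial-like cells. Among other targets, *Hey1* (55.85 CPM) and *Msx1* (27.9 CPM) were highest in endothelial-like cells and *Atoh8* in coelomic epithelium-like cells (15.55 CPM). The E protein genes, whose products ID proteins bind, were *Tcf3* (133 CPM at most) and *Tcf12* (106 CPM at most), both highest in interstitial-like cells, and *Tcf4*, with 686 CPM in endothelial-like and 43.2 in Sertoli-like cells. *Tcf3* was at 126 CPM in endothelial-like cells and *Tcf12* at 93.5 in perivascular-like cells.

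Counted together with the members, 37 pathway genes passed the minimum of 100 UMIs, all 9 members among them. Members and list were chosen with earlier results of these data known, so their shares beside all genes are descriptions and not an independent test. In coelomic epithelium-like cells 11 of the 37 (29.7%) were at least 2-fold higher than in all other cells, against 5.14% of all genes tested. Among the 11 were the 4 ID genes and *Smad6*. In peritubular myoid-like cells 7 were (18.9%, background 4.42%), among them *Id2*, *Id4*, *Smad1* and *Smad5*. The counts were 5 in perivascular-like (13.5%, background 4.62%), 7 in endothelial-like (18.9%, background 8.18%) and 4 in interstitial-like cells (10.8%, background 6.99%). They were 7 in Sertoli-like (18.9%, background 11.1%) and 5 in Leydig-like cells (13.5%, background 6.17%). At least 2-fold lower were 14 in Sertoli-like (background 17.4%), 16 in Leydig-like (21.5%) and 12 in endothelial-like cells (3384 of 12226 genes tested). In perivascular-like cells 7 were lower (1897 of all genes tested), in interstitial-like cells 7 (1736), in coelomic epithelium-like cells 4 (1656) and in peritubular myoid-like cells 2 (1799). Immune-like cells had 1 (2.7%, background 9.63%), *Id2*, and 25 at least 2-fold lower (background 34.6%). Germ-like cells had none higher (13.9%) and 24 at least 2-fold lower (35.1%), including *Id1*, *Id2*, *Id3*, *Bmpr1a*, *Bmpr2*, *Smad1* and *Smad5*.

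**Figure D5:**
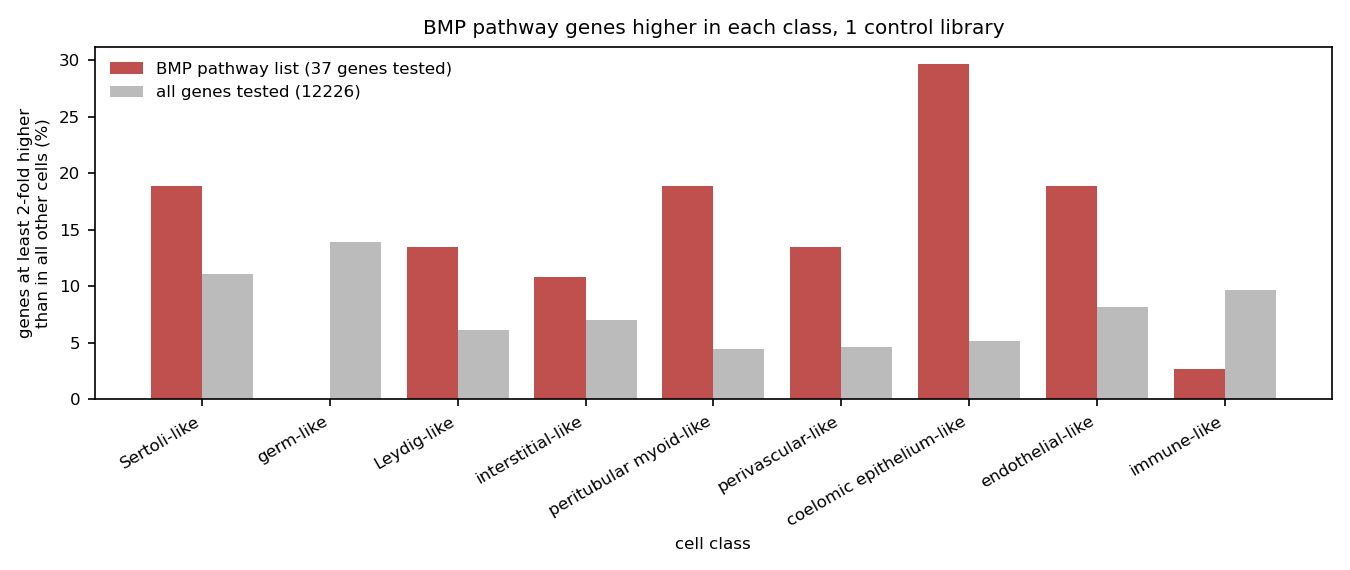
Share of genes (vertical axis, %, from 0) at least 2-fold higher in each cell class (horizontal axis) than in all other kept cells, for the 37 pathway genes tested (red) and for all 12226 genes tested (grey). The red bar is tallest in coelomic epithelium-like cells (29.7% against 5.14%) and is at 0 in germ-like cells. The pathway genes were chosen with earlier results of these data known.

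Some ID transcripts were counted in the same cells of a class. Thinned to 5000 UMIs, *Id1* and *Id3* had an r of 0.55 across 506 peritubular myoid-like cells and 0.55 across 153 coelomic epithelium-like cells, and *Id2* and *Id3* of 0.49 and 0.51. In interstitial-like cells *Id2* and *Id3* had an r of 0.38 (1378 cells). This class pools 4 clusters, of which cluster 10 was highest in both genes (244 and 643 CPM). The part of this difference between clusters in the r was not tested. In Sertoli-like cells *Id1* and *Id3* had an r of 0.25, although 739 of 847 cells had an *Id3* UMI. These values are descriptions, since the cells come from 1 library and thinned counts are sparse. Of 42 pairs of ID genes in 7 classes, 10 had an r of at least 0.3 with at least 10 cells holding both.

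Cell-cycle calls separated few of the levels. Of 63 comparisons between cells called G1 and cells called S or G2/M within a class, 2 had intervals apart. *Bmp4* in Leydig-like cells was at 33.1 CPM (23.6 to 45.02) in 242 cells called G1 and 6.06 (0.734 to 21.9) in 66 cells called S or G2/M. Of the cells of Leydig-like cluster 8, where *Bmp4* was higher, 1.57% were called S or G2/M, against 34.8% in cluster 6. Within cluster 6 the *Bmp4* intervals overlapped, with 18.5 CPM (9.23 to 33.1) in G1 and 6.25 (0.757 to 22.6, from 2 UMIs) in S or G2/M. *Id3* in interstitial-like cells was at 216 CPM (201 to 232) in G1 and 128 (116.5 to 141) in S or G2/M. These groups held different clusters: all cells of cluster 5 (*Id3* at 109.8 CPM) were called S or G2/M, against 31.5% in cluster 10 (643 CPM). Within cluster 1 *Id3* was at 164 CPM (148 to 181) in G1 and 106 (91.1 to 122) in S or G2/M, and within cluster 3 the intervals overlapped (185 and 162 CPM). With cells thinned to 3000 UMIs, 1 comparison had its intervals apart, and it was not matched to the 2 above. A phase call is not by itself a sign of division.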

How the data were processed

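Single-cell suspensions of fetal testes were captured with 10x Genomics 3′ chemistry, and the authors made the deposited UMI counts with Cell Ranger (3.0.2 and 3.1.0 per the labels, 3.1.0 per the file headers, and a later version in the methods) on mm10 with a YFP sequence. The deposited counts cover 5421 barcodes and 72595083 UMIs in 1 library. Barcodes under 200 genes (372), 204 doublets by similarity to artificial doublets, and 1029 cells over 3 median absolute deviations from the median were removed. Cells were clustered with Seurat 5.3.0 and sctransform 0.4.2 (3000 variable genes less the BMP list, 30 components, resolution 0.8). A cluster took a class name from at least 3 detected markers and a mean log2 ratio of at least 1. A shallow cluster with no marker of that class among its 10 leading genes stayed unnamed. Levels are summed UMIs as CPM (per 1000000 UMIs of the class) with exact Poisson 95% intervals, and shares have exact Clopper-Pearson intervals. Genes outside the 9 were named where their highest class reached 10 CPM, or as the 3 with the highest Pearson's r to a member. The members and lists were chosen with earlier results of these data known. Gene positions are from GENCODE on mm10. Scripts were tested on simulated data. Library depth was 2260 to 53807 UMIs per kept cell. Other filters, resolutions, thinning depths and scalings were tried as alternatives. Values of some genes are not reported here.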

Additional observations from a re-analysis of the deposited data

Results flagged for a closer look

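The 372 barcodes under 200 genes enter no comparison, yet they held transcripts of 3 of the genes above 2.62 CPM, the upper 95% limit that a count of 0 allows. These were 14 UMIs of *Id3* (9.93 CPM), 6 of *Smad7* (4.26 CPM) and 4 of *Id2* (2.84 CPM) among 1409901 UMIs. Of all UMIs in this set, 46.8% came from hemoglobin genes and 49.2% from mitochondrial genes.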

How the results depend on the processing

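All values rest on 1 library, and the intervals cover counting error only. No paired analysis was possible because there was 1 library and no second group. Of 63 levels in the highest class recomputed under 7 settings, 47 stayed inside the interval of the reported value and 16 did not. Among named classes, the highest class was kept for 4 of 9 genes with no doublets removed. An unnamed cluster of 85 cells from Leydig-like cluster 6, not ranked in that setting, had *Bmp2* at 51.1 CPM, against 35.5 in Leydig-like cells. In the class reported as highest, that setting gave *Bmp4* 21.1 and *Bmp7* 10.4 CPM. Without the filter on outlier cells *Bmp2* had 34.0 CPM. With each cell classed by itself *Bmp4* had 15.7 and *Id1* 458 CPM. With the mean of per-cell values *Bmp2* had 48.1 and *Bmp7* 21.1 CPM. Without mitochondrial, ribosomal-protein and hemoglobin genes in the total, which raises every level by construction, the 9 genes had 58.0 (*Bmp2*), 44.85 (*Bmp4*), 24.3 (*Bmp7*), 777 (*Id1*), 666 (*Id2*), 1478 (*Id3*), 153 (*Id4*), 54.1 (*Smad6*) and 539 (*Smad7*) CPM. The median over genes of the highest-class share of cells was 36.6% at 5000 UMIs, 22.0% at 3000 and 64.0% as read, fewer UMIs per cell giving lower shares by construction. Over the named classes, 47 pairs of a pathway gene and a class were at least 2-fold higher, and 22 at 3-fold. A gene could count in more than 1 class. The shares of all genes at 2-fold stand above, and none was computed at 3-fold. Spearman's rho kept 8 of the 27 most similar genes. At 3000 UMIs, a depth chosen for this after the data were seen, 1 cell-cycle comparison had intervals apart, against 2 at 5000. For the other changes the cause was not tested.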

Other observations

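With doublets kept, 34 cells formed a rete testis-like cluster led by *Pax8* and *Aldh1a3*, described here after its values were seen. The rete testis is the duct network that joins the cords to the efferent ducts. Its cells had *Bmp4* at 67.1 CPM (32 UMIs, 45.9 to 94.7), *Id3* at 1510 (1402 to 1624), *Smad6* at 155 (122 to 195) and *Smad7* at 428 (371 to 491). Of the 34 cells, 17 had been removed as doublets, and the other 17 lay in Sertoli-like cluster 0 (11) and interstitial-like cluster 3 (6). The intervals of *Smad6* and of *Id3* overlapped between both sets, with 150.2 and 1464 CPM in the removed and 161.5 and 1567 CPM in the kept cells. *Bmp4* was at 97.6 CPM (26 UMIs) in the removed and 28.5 CPM (6 UMIs) in the kept cells.

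In the same setting, 85 cells of Leydig-like cluster 6 formed an unnamed cluster with *Nts*, *Vsnl1*, *Smoc2* and *Bmp2* among its leading genes. It had *Bmp2* at 51.1 CPM (38.7 to 66.15), *Bmp7* at 39.4 (28.6 to 52.9) and *Bmp4* at 8.06 (3.69 to 15.3).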
